A study of Mus musculus with 8 samples.

Results

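This account is about 10 genes for G protein-coupled receptors that sense metabolites, protons or lipid mediators: Gpr35, Gpr65, Gpr183, Gpr132, Ffar2, Ffar3, Hcar2, Sucnr1, Adora2a and S1pr1. They were taken by symbol from a table of 39527 genes, where each had 1 entry. RNA was read by sequencing, after full-length cDNA amplification, in group 2 innate lymphoid cells (ILC2s), which are tissue lymphocytes that make type 2 cytokines without an antigen receptor. The cells were sorted from epididymal visceral fat of wild-type male C57BL/6 mice aged 14 weeks. One group of 4 libraries (N1 to N4) came from mice on a normal diet and the other group of 4 (H1 to H4) from mice given a high-fat diet for 8 weeks from 6 weeks of age. Both groups share strain, sex, age, genotype and tissue, and diet is the only labelled difference between them. Whether a library is 1 mouse or a pool is not given, nor is the sort gate, so the p-values below describe spread between libraries that may be technical in part.

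Receptors of this class pass signals through heterotrimeric G proteins. Those that couple to Gs raise cyclic AMP, those that couple to Gi lower it, and some act through Gq or the G12 and G13 family on calcium or the cytoskeleton. Among lymphocytes, adenosine and proton receptors are known as brakes or modulators of activation, and the receptors for sphingosine 1-phosphate and for oxysterols are known for guiding cells out of or within tissue.

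The values are FPKM, fragments per kilobase of transcript scaled to library size, so comparing levels between genes relies on the length used for each gene. From the step size of the values, whole reads could be recovered, and these came to 7767805 to 13586768 per library, with H2 the lowest. A gene was tested where it reached 1 FPKM in at least 4 of the 8 libraries and had no value below 0, which held for 11483 genes and 8 of the 10 receptors. Differences are high-fat minus normal diet in log2(FPKM + 1), a scale on which the changes of weakly expressed genes come out too small, and adjusted p-values come from limma with Benjamini-Hochberg adjustment over all tested genes. Of these, 328 were called at 0.05, or 2.86%, with 112 higher and 216 lower on the high-fat diet (226 and 204 under quantile normalization, 1074 and 395 by limma-voom on the recovered reads scaled to their totals). The deposited values also carry a factor of 10 sizes, 0.863 to 1.18, that recurs in a fixed cycle down the gene list. Results for the receptors are given with it divided out where that changes a call. For other genes that did not pass, results with it divided out are not given here. All 10 ILC2 markers on the list used, among them Gata3, Il1rl1 and Klrg1, passed the filter, and their summed level was 6410 to 7660 FPKM on the normal and 4773 to 5511 FPKM on the high-fat diet. Markers of other cells were lower in sum but present. The summed level of 11 T cell genes was 437 to 604 FPKM on the normal and 436 to 921 FPKM on the high-fat diet. In the same order it was 18.5 to 24.5 and 36.8 to 144 FPKM for 10 endothelial genes. It was 115 to 369 and 102 to 247 FPKM for 7 B cell genes, and 1372 to 3182 and 710 to 3446 FPKM for 9 eosinophil and mast cell genes. For 7 dendritic cell genes it was 72.9 to 113 and 30.4 to 45.2 FPKM and for 10 macrophage genes 4.36 to 8.25 and 8.87 to 10.5 FPKM. For 9 adipocyte and stromal genes it was 3.02 to 8.43 and 6.68 to 31.9 FPKM and for 6 neutrophil genes 1.13 to 2.66 and 0.848 to 3.39 FPKM. No gene of these lists was at 0 in all libraries, and no call was made among them apart from 2 higher endothelial, 2 lower dendritic cell and 3 lower ILC2 genes. The 2 dendritic cell genes, Zbtb46 (means of 76.0 and 29.1 FPKM) and Xcr1 (10.4 and 5.55 FPKM), made up most of that list's sum. The other 5 dendritic cell genes lay under the filter. Within the endothelial sum, Fabp4 alone had means of 1.45 and 61.3 FPKM.

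Of the 10 receptors, only Gpr35 passed the test in the values as deposited, and it was lower on the high-fat diet. It was 1 of 8 tested receptors, where 1.88% of all tested genes were called lower. The other 7 tested receptors did not pass. Of the 8 differences 6 were below 0, with a median of -0.40, where 52.1% of all tested genes were below 0 and their median was -0.02. With the recycled factor divided out, Adora2a and Gpr132 passed as well, so that 3 of 8 were called lower where 3.36% of all tested genes were. Gpr35, Gpr132 and Ffar2 showed no overlap between the diets' libraries, each being lower on the high-fat diet, against 6.76% of all tested genes without overlap in that direction (11.1% in either direction). With the factor divided out Adora2a joined them, against 8.96%.

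**Figure D1:**
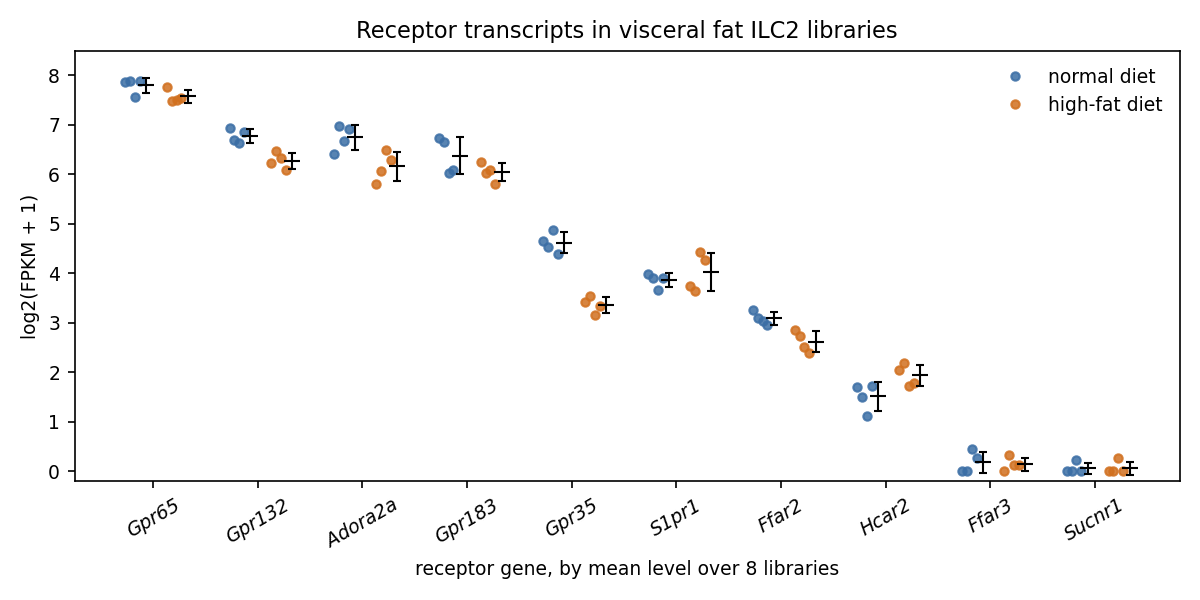
Level of each of the 10 receptor genes by library, as log2(FPKM + 1), on the normal diet (blue) and the high-fat diet (orange). Points are libraries and black bars the mean and SD of 4. Gpr65 stands highest, 3 genes lie together under it, and Ffar3 and Sucnr1 lie near 0.

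The sequence around the transcription start is shown for Gpr35, the receptor that passed as deposited, and for Gpr132, which passed with the factor divided out, since regulatory factors often bind in such windows. Both were taken from RefSeq (GRCm38.p6, the sequence of mm10). The table held windows for 7 of the 10 receptors. Gpr35 has 2 start sites and Gpr132 has 1, and each window is 300 bases long, written 5′ to 3′ on the gene's strand. Capitals mark matches to any of 5 motifs, searched on both strands. The letters searched were AGATAA for GATA factors, with TGATAA as their other form, then TGACG for the core of the cyclic AMP response element, TGTGGT for RUNX factors, CAGGAAG for ETS factors, and GTAAACA for FOXO factors. The windows are chr1:92972869-92973168 and chr1:92978653-92978952, plus strand, for Gpr35 and chr12:112860867-112861166, minus strand, for Gpr132.
Gpr35 start site 1: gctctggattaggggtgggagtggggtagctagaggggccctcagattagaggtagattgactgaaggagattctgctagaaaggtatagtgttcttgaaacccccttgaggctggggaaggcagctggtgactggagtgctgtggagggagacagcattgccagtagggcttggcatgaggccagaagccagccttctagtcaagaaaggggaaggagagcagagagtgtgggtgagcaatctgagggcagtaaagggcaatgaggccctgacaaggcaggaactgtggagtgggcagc
Gpr35 start site 2: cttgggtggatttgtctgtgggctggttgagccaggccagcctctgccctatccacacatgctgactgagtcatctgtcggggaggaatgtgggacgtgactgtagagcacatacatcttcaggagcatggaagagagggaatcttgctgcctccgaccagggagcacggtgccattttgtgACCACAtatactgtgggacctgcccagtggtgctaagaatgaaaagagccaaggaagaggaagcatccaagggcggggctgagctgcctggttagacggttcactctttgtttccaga
Gpr132: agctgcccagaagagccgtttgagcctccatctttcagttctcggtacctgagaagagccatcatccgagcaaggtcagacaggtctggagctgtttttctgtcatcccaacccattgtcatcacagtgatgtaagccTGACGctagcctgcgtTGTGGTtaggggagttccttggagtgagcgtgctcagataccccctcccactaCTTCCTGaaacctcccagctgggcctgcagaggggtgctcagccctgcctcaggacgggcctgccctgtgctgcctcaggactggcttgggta
The first Gpr35 window held no match. The second held 1 RUNX match on the minus strand, its first base 68 bases before the start site. In the Gpr132 window there was 1 match each to the cyclic AMP response element core and RUNX on the plus strand and to ETS on the minus strand, beginning 112, 96 and 43 bases before the start, and none overlapped another. Among 32851 windows of the same length, 20.8% held the cyclic AMP response element core, 16.8% RUNX, 13.3% ETS, 18.6% GATA and 3.65% FOXO. These are matches of letters only.

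Gpr35 (ENSMUSG00000026271, chromosome 1, 92950865 to 92986391 in mm10, plus strand) encodes a receptor for which kynurenic acid and lysophosphatidic acid have been proposed as ligands. On the normal diet it was at 24.2, 22.3, 28.6 and 19.9 FPKM in N1 to N4, and on the high-fat diet at 9.67, 10.7, 7.97 and 9.11 FPKM in H1 to H4. Every high-fat library lay below every normal-diet library, and the lowest normal-diet value was well clear of the highest high-fat value. The mean went from 23.8 ± 3.66 to 9.36 ± 1.13 FPKM (SD, n = 4 each), that is to 39.4% of the normal-diet level. The log2 difference was -1.25 with a standard error of 0.16 and a 95% interval of -1.58 to -0.92 (limma, adjusted p = 0.00155). In RNA from sorted bulk cells, fewer cells with the transcript and less transcript per cell cannot be told apart, here and below. Of the 216 genes called lower, 17 had a larger fall. These levels rest on 73 to 226 recovered reads a library, for which counting error alone is 6.65% to 11.7%. The call held in all 18 other settings tried, with adjusted p between 5.37e-05 and 0.0133, and without each library in turn the difference was -1.33 to -1.16.

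The gene patterns most like that of Gpr35 over the 8 libraries, by Pearson correlation of log2 values, were those of Zdhhc23 (0.982), Dnaja1 (0.976) and Gm7816 (0.976). They were not set apart, since 121 tested genes had a correlation with Gpr35 over 0.9. Zdhhc23, a palmitoyltransferase gene, was low, at 1.89 FPKM under normal and 1.26 FPKM under high-fat feeding, and missed the threshold (log2 difference -0.35, limma adjusted p = 0.366). Dnaja1, an HSP40 co-chaperone, fell from 1351 to 812 FPKM (-0.73, limma adjusted p = 0.00939). All 8 points of each correlation share the libraries, and the diet difference is part of the pattern.

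**Figure D2:**
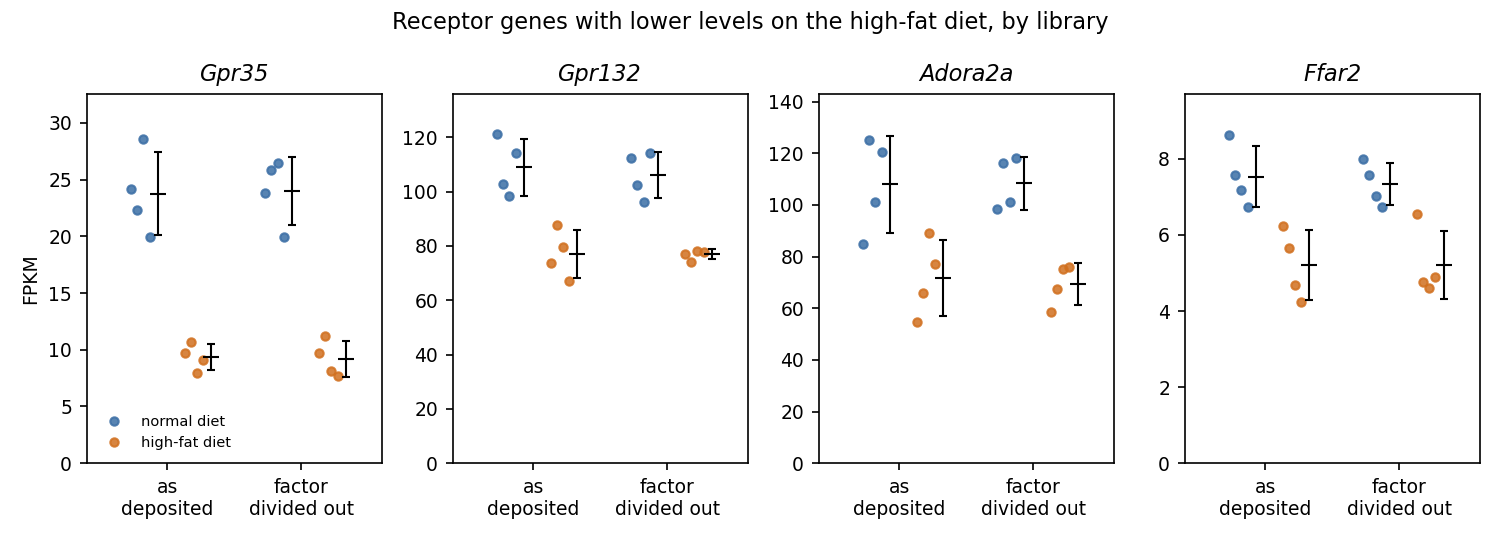
FPKM by library of the 4 receptor genes with the most negative differences, as deposited and with the recycled factor divided out, on the normal diet (blue) and the high-fat diet (orange). Points are libraries and bars the mean and SD of 4. The high-fat libraries of Gpr132 lie between 67.1 and 87.8 FPKM as deposited and between 74.1 and 78.2 FPKM with the factor divided out.

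Adora2a (ENSMUSG00000020178, chromosome 10, 75316877 to 75334784, plus strand) encodes an adenosine receptor that couples to Gs and restrains lymphocyte activation. It stood at 84.7, 125, 101 and 120 FPKM in N1 to N4 and at 54.8, 66.0, 89.2 and 76.9 FPKM in H1 to H4. The diets overlapped through N1 and H3 alone. Means were 108 ± 18.6 and 71.7 ± 14.7 FPKM, and the log2 difference of -0.59 (standard error 0.18) did not pass (limma, adjusted p = 0.0894). With the recycled factor divided out the normal-diet libraries lay at 98.2 to 118 FPKM and the high-fat libraries at 58.7 to 75.7 FPKM. These did not overlap, and the difference of -0.64 (standard error 0.13) passed at adjusted p = 0.0121 by limma, with 0.0110 to 0.219 over the 18 alternative settings. The gene was read deeply, at 1508 to 3589 recovered reads a library.

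Of the 5 enzymes and carriers of adenosine on the list, all tested, 1 fell and 4 did not pass, where 1.88% of all tested genes were called lower. Ada, the enzyme that converts adenosine to inosine, fell from 64.5 ± 11.2 to 32.0 ± 8.40 FPKM (SD, n = 4 each, log2 difference -1.01, limma adjusted p = 0.0104), a call that held in all 18 other settings. Nt5e, which makes adenosine from AMP at the cell surface, was at 74.9 ± 5.52 and 57.2 ± 6.45 FPKM without overlap between the diets, and did not pass (-0.39, adjusted p = 0.155). Slc29a1, an adenosine carrier, was at 50.1 ± 9.62 and 33.3 ± 11.2 FPKM (-0.62, adjusted p = 0.184). Adk, which turns adenosine into AMP, was at 52.1 ± 13.2 and 42.4 ± 15.3 FPKM (-0.34, adjusted p = 0.608). Entpd1, which breaks down extracellular ATP and ADP to AMP, was the only one of the 5 with a difference above 0, at 1.63 ± 0.46 and 2.68 ± 0.44 FPKM (0.49, adjusted p = 0.209). Of the other adenosine receptors Adora2b, the low-affinity form, was at 3.17 ± 0.14 and 2.30 ± 0.40 FPKM (-0.35, adjusted p = 0.318), without overlap, Adora3 was at 5.48 ± 1.33 and 4.28 ± 1.98 FPKM (-0.37, adjusted p = 0.550), and Adora1 lay under the filter. Adora2a was therefore the most abundant transcript of the 4 adenosine receptors on either diet.

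Gpr65 and Gpr132 belong with Gpr4 to the proton-sensing receptors. Gpr65 (ENSMUSG00000021886, chromosome 12, 98268635 to 98276644, plus strand), which responds to acid through Gs, was the most abundant of the 10 receptors in every library, at 37.5% to 47.8% of their summed FPKM. Its level was 234, 235, 187 and 234 FPKM in N1 to N4 and 216, 179, 181 and 186 FPKM in H1 to H4. N3 lay within the high-fat range and H1 above it, so the diets overlapped. The difference of -0.22 had a 95% interval of -0.52 to 0.08 (limma, adjusted p = 0.440) and was -0.05 under quantile normalization. An antisense gene, Gm47566, overlaps Gpr65, and a library of this kind does not keep the strand, so reads of the pair cannot be told apart.

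Gpr132 (ENSMUSG00000021298, chromosome 12, 112850873 to 112868228, minus strand) has been linked to lysophospholipids and oxidised fatty acids as well as to protons. It was at 121, 103, 98.2 and 114 FPKM in N1 to N4 and at 73.7, 87.8, 79.4 and 67.1 FPKM in H1 to H4. Every high-fat library was below every normal-diet library. The log2 difference was -0.50 (standard error 0.14, 95% interval -0.80 to -0.19) and did not pass (limma, adjusted p = 0.0745). With the recycled factor divided out the means were 106 ± 8.47 and 76.8 ± 1.85 FPKM, and the difference of -0.46 passed at adjusted p = 0.0314 by limma, with 0.0314 to 0.228 over the 18 alternative settings. As deposited it also passed without H2 (-0.56, limma adjusted p = 0.0387). The related Gpr4 lay under the filter.

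**Figure D3:**
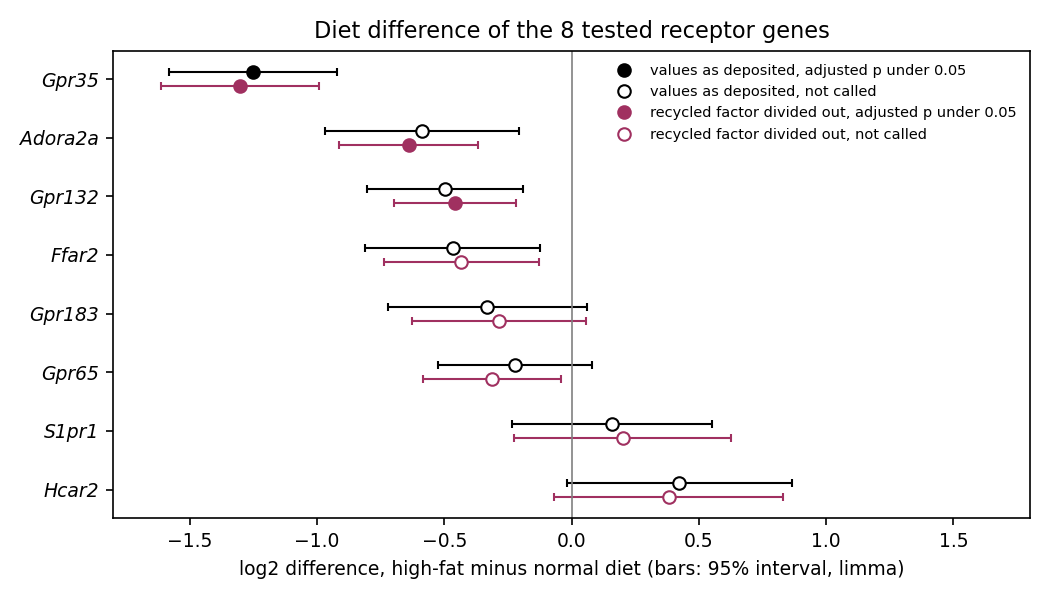
Log2 difference, high-fat minus normal diet, of the 8 tested receptor genes with 95% intervals from limma, as deposited (black) and with the recycled factor divided out (purple). Filled points have an adjusted p under 0.05. Gpr35 is filled in both, Adora2a and Gpr132 only with the factor divided out.

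Ffar2 and Ffar3 are neighbouring genes on chromosome 7 for receptors of short-chain fatty acids, the products of gut bacteria. Ffar2 (ENSMUSG00000051314, 30818348 to 30823775, minus strand) was at 8.62, 7.59, 7.18 and 6.74 FPKM in N1 to N4 and at 6.25, 5.66, 4.68 and 4.23 FPKM in H1 to H4. The diets did not overlap, though the lowest normal-diet and the highest high-fat library were close. The difference of -0.47 (standard error 0.16) did not pass (limma, adjusted p = 0.135, and 0.0909 to 0.306 over 18 other settings). It rested on 101 to 194 recovered reads a library. Ffar3 (ENSMUSG00000019429, 30854330 to 30856178, minus strand) was at 0, 0, 0.357 and 0.212 FPKM in N1 to N4 and at 0, 0.249, 0.0941 and 0.0884 FPKM in H1 to H4. These values stand for 10 recovered reads in all 8 libraries, with at most 4 in any of them, and the gene was not tested.

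Hcar2 and Sucnr1 sense products of energy metabolism, Hcar2 the ketone body beta-hydroxybutyrate and niacin, and Sucnr1 succinate. Both are known from adipocytes and myeloid cells. Hcar2 (ENSMUSG00000045502, chromosome 5, 123863570 to 123865499, minus strand) was at 2.27, 1.83, 1.16 and 2.32 FPKM in N1 to N4 and at 3.14, 3.54, 2.31 and 2.45 FPKM in H1 to H4. Only H3 was below the highest normal-diet library, N4, and by little. Its difference of 0.42 (95% interval -0.02 to 0.87) did not pass (limma, adjusted p = 0.296), on 16 to 41 recovered reads a library. The summed macrophage markers given above were higher on the high-fat diet, narrowly without overlap (at most 8.25 against at least 8.87 FPKM). Those of adipocytes and stroma were higher with overlap. Of the 10 macrophage genes 8 lay under the filter. Adgre1 went the other way without overlap (1.43 to 0.378 FPKM), and Cd68 was at 2.86 and 2.91 FPKM. The part of these cells in the Hcar2 values was not tested. Sucnr1 (ENSMUSG00000027762, chromosome 3, 60081869 to 60087566, plus strand) was at 0.173 FPKM in N3 and 0.199 FPKM in H3, from 3 and 4 recovered reads, and at 0 in the other 6 libraries. A count of 0 allows up to 3.69 reads at the upper end of its 95% interval. Sucnr1 was therefore at or near the limit of detection on both diets and no fold is given. Such limits cover counting error only.

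Gpr183 and S1pr1 guide the movement of lymphocytes. Gpr183 (ENSMUSG00000051212, chromosome 14, 121952551 to 121965195, minus strand), or EBI2, follows gradients of oxysterols. It was at 106, 99.2, 64.3 and 67.1 FPKM in N1 to N4 and at 75.2, 64.0, 67.4 and 55.3 FPKM in H1 to H4. N1 and N2 were above all high-fat libraries and N3 and N4 among them. The difference of -0.33 (95% interval -0.72 to 0.06) did not pass (limma, adjusted p = 0.364). Of the enzymes that make its ligand, Ch25h and Cyp7b1 lay under the filter, with at most 8 and 6 recovered reads in a library.

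S1pr1 (ENSMUSG00000045092, chromosome 3, 115710433 to 115715072, minus strand) is the sphingosine 1-phosphate receptor that lets lymphocytes leave tissue, and endothelial cells carry it too. It was at 14.9, 14.1, 11.6 and 14.0 FPKM in N1 to N4 and at 12.5, 11.6, 20.5 and 18.3 FPKM in H1 to H4. H3 and H4 stood above every normal-diet library, whereas H1 lay within the normal-diet range and H2 just below it. The difference of 0.16 (95% interval -0.23 to 0.55) did not pass (limma, adjusted p = 0.713). The summed endothelial markers were 144, 36.8, 100 and 114 FPKM and the summed T cell markers 874, 436, 719 and 921 FPKM in H1 to H4, and their part in S1pr1 was not tested. Within the endothelial sum, Fabp4 alone was at 0.788 to 1.81 FPKM on the normal and 9.68 to 104 FPKM on the high-fat diet. A second lymphocyte receptor of this ligand, S1pr4, was more abundant, at 35.4 ± 5.96 and 36.6 ± 7.48 FPKM (0.04, adjusted p = 0.942).

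Of 7 genes for egress and retention around S1pr1, 1 fell and 6 did not pass, where 1.88% of all tested genes were called lower. Foxo1, a transcription factor that supports S1pr1 and Klf2 in T cells, fell from 15.2 ± 1.67 to 8.21 ± 1.19 FPKM (log2 difference -0.82, limma adjusted p = 0.0104), and this held in all 18 other settings. Klf2, an activator of S1pr1, was at 6.54 ± 1.32 and 4.96 ± 0.72 FPKM (-0.33, adjusted p = 0.345). Cd69, whose protein binds S1PR1 and keeps it from the surface, was at 814 ± 248 and 796 ± 185 FPKM (-0.02, adjusted p = 0.980). Klf3 was at 50.3 ± 19.2 and 22.2 ± 8.70 FPKM (-1.13, adjusted p = 0.0848). The median over the 7 genes was -0.33, against -0.02 over all tested genes.

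By level, the receptors formed the same tiers on both diets apart from Gpr35 and S1pr1. Gpr65 was highest without overlap with the next. Gpr132, Adora2a and Gpr183 followed at 64.3 to 125 FPKM on the normal and 54.8 to 89.2 FPKM under high-fat feeding, with overlap between neighbours among these 3. Gpr35 and S1pr1 came next, then Ffar2, then Hcar2, and last Ffar3 and Sucnr1, which overlapped each other. The order of Gpr35 and S1pr1 in FPKM differed between the diets: all normal-diet libraries had more Gpr35 than any had S1pr1, and all high-fat libraries had less. The recovered length was 717.5 bases for Gpr35, against 4839 exon bases, and 3017 for S1pr1, against 3046. Recovered reads are the smallest whole counts that match the values, so they can be too low. As recovered, reads of Gpr35 lay below those of S1pr1 in every library, at 73 to 226 against 322 to 826. The order of the 2 genes in FPKM on the normal diet thus rests on the lengths used. Gpr65 had a mean above 95.8% of all tested genes, Gpr35 above 62.9% and Hcar2 above 19.1%. The 4 most abundant receptors held 90.2% to 93.0% of the summed FPKM of the 10, which was 500 to 608 on the normal and 419 to 453 on the high-fat diet.

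Other receptors for metabolites, lysolipids, nucleotides and protons did not pass in any case. Of 36 on the list 18 were tested, with a median difference of -0.24 and 10 below 0, and 18 lay under the filter. Gpr171, a receptor for a neuropeptide, was the most abundant, at 210 ± 20.9 and 219 ± 28.7 FPKM (0.06, adjusted p = 0.887). P2ry10, a lysophosphatidylserine receptor, was at 74.8 ± 8.53 and 63.9 ± 8.46 FPKM (-0.23, adjusted p = 0.452). Ffar1 and Ffar4, the receptors for long-chain fatty acids, were at or near the filter, Ffar1 at 1.16 ± 0.55 and 0.671 ± 0.515 FPKM (-0.38, adjusted p = 0.535) and Ffar4 below it. None of these 18 was called higher either, where 0.975% of all tested genes were.

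Downstream of the receptors, 2 of 25 tested genes of G protein and cyclic AMP signalling rose and 23 did not pass, where 0.975% of all tested genes were called higher and 2.86% either way. Both are regulators of G protein signalling, which speed up GTP hydrolysis by G protein alpha subunits. Rgs3 rose from 4.71 ± 1.08 to 9.37 ± 1.31 FPKM (log2 difference 0.87, limma adjusted p = 0.0137) and Rgs16 from 29.9 ± 6.19 to 53.5 ± 11.5 FPKM (0.82, adjusted p = 0.0311). The call of Rgs3 ended without H3 or H4 (limma adjusted p 0.0561 and 0.0588) and with no filter on low values (0.0545). That of Rgs16 ended without N1, N2, N3, H3 or H4 (0.0506 to 0.121), with no filter (0.109), without trend and robust options (0.0705) and with a replicate block (0.0792). The most abundant members were Rgs2, at 4169 ± 853 and 4125 ± 674 FPKM (-0.01, adjusted p = 0.985), and Crem, a cyclic AMP-responsive transcription factor, at 1421 ± 166 and 1086 ± 191 FPKM (-0.40, adjusted p = 0.193). Arrb2, a beta-arrestin that shuts off and internalises receptors, was at 58.8 ± 12.8 and 85.1 ± 5.57 FPKM without overlap (0.55, adjusted p = 0.0964). Of the 21 genes that make, break or move the ligands 13 were tested, 12 of them below 0, and only Ada was called, where 52.1% of all tested genes were below 0 and 1.88% were called lower. The most abundant of these were Sdhb and Sdha, subunits of succinate dehydrogenase, at 199 ± 27.7 and 179 ± 30.1 FPKM (-0.16, adjusted p = 0.671) and at 194 ± 35.2 and 147 ± 26.8 FPKM (-0.40, adjusted p = 0.250).

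**Figure D4:**
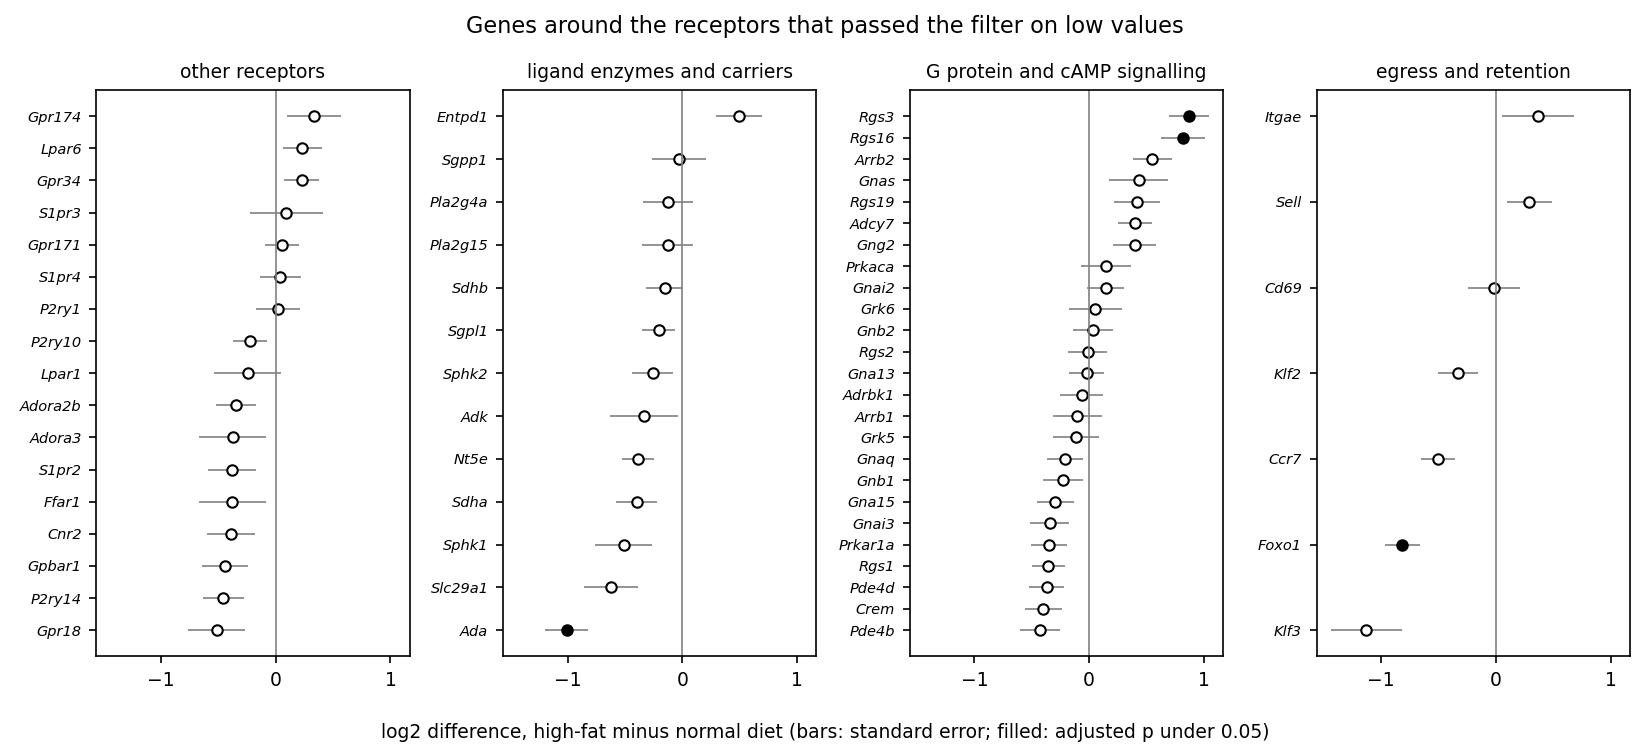
Log2 difference, high-fat minus normal diet, with its standard error, of tested genes in 4 lists around the receptors. Filled points have a limma adjusted p under 0.05: Ada and Foxo1 below 0, Rgs3 and Rgs16 above 0.

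An exact two-sided permutation test of each receptor alone over the 70 splits of 8 libraries gave the smallest p it allows, 0.0286, for Gpr35, Gpr132 and Ffar2. It gave 0.0571 for Gpr65, Hcar2 and Adora2a, 0.2 for Gpr183, 0.429 for S1pr1, 0.914 for Ffar3 and 1 for Sucnr1. On recovered reads scaled to their totals, limma-voom called Gpr35, Adora2a and Gpr132 lower, at -1.28, -0.49 and -0.31, where 2.55% of tested genes were called lower. In that fit, which also has its own log offset, weights and filter, the median difference was 0.16 over its 15502 tested genes and 0.13 over the 11483 genes tested above, and these values are to be read against that shift. No tested receptor changed sign in the settings run, which were 18 for each but Hcar2 and 17 for Hcar2, which lay under the filter of 5 FPKM.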

How the data were processed

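RNA of sorted ILC2s was amplified with the SMART-Seq HT kit and built into libraries with the TruePrep kit, per the labels' protocols, a transposase chemistry that does not mark strand. HISAT2, Cufflinks and mm10 are named per the submitters' processing notes. The authors deposited 1 table of FPKM by gene and library, per the file headers. Of its 39527 genes 14605 hold values below 0 and 815 are at 0 throughout, none of the 10 receptors among them.

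Values were fitted as log2(FPKM + 1) in limma 3.58.1 (R 4.3.3) with diet as the only term, eBayes with trend and robust options and two-sided p-values. The step of the values below 0 gave the value of 1 read and the recycled factor. Reads of the other genes followed from the shortest length, in steps of 0.5 base, that made all 8 values whole (relative tolerance 1e-06). One was found for 100% of 24107 genes, and with the factor of the next row for 0 of 200. Reads that share a divisor come out too low. Fit and recovery were tested on simulated data.

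The receptors, the 4 lists around them, the 9 marker lists and the rule for named genes (every receptor, the 3 genes most like a called receptor, up to 4 called and the 2 most abundant genes of each list) were chosen with earlier results of these data known. Of the listed genes, 4 were not found under these symbols, and 1 other is counted in its list but not reported here. Other genes named with values (Nt5e, Slc29a1, Adk, Entpd1, Adora2b, Adora3, S1pr4, Klf2, Klf3, Arrb2, Ffar1) or as under the filter were chosen after their values were seen. Positions are from GENCODE M21, by identifier. Alternatives were another pseudocount, filters, scalings, the factor divided out, limma-voom, a replicate block and leaving out libraries.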

Additional observations from a re-analysis of the deposited data

Results flagged for a closer look

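In 20 groups of 4 libraries (10 receptors on 2 diets), 3 held a library far from the others relative to the range, where chance flags about 1 group in 20. Gpr65 on the normal diet was 187 FPKM in N3 against 234 to 235 FPKM in N1, N2 and N4. Sucnr1 was 0.173 FPKM in N3 and 0.199 FPKM in H3, each in a group otherwise at 0. In such a group any value above 0 is flagged, so the rate of 1 in 20 does not apply to Sucnr1.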

How the results depend on the processing

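Gpr35 kept its direction and its call in all 18 alternatives. Without 1 library at a time the count of genes called ran from 129 to 536 and that of receptors called from 1 to 2, and Gpr132 ran from -0.56 to -0.43. The count of genes called was 130 with no filter, 571 with the recycled factor divided out and 1469 by limma-voom on recovered reads. Receptors called numbered 3 with the factor divided out and 3 by limma-voom (Gpr35, Gpr132, Adora2a), 2 at a filter of 5 FPKM (Gpr35, Adora2a) and 2 without both H2 and N2 (Gpr35, Gpr132). Gpr132 passed at -0.46 with the factor divided out, -0.31 by limma-voom and -0.59 without both H2 and N2. Adora2a passed at -0.64 with the factor divided out, -0.49 by limma-voom and -0.59 at the filter of 5 FPKM. Why these calls differ was not tested. With the replicate number as a block 191 genes and 1 receptor were called. Same-numbered libraries did not deviate together (correlations of -0.25 to 0.08 across genes, against -0.20 to 0.22 for other pairs). No pairing by number was seen, but weak correlations cannot exclude one. Depth limits Ffar3 and Sucnr1, with 10 and 7 recovered reads over all libraries, and Hcar2, with 16 to 41 a library.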
